A study of Mus musculus with 6 samples.

Results

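The rows described here belong to 4 gene loci at which a matrix protease, a protease inhibitor or a matrix protein is overlapped by a gene on the other strand. The 8 rows are Syn3 with Timp3, 8030451A03Rik with Tnc, Tmem198b with Mmp19, and Mmp11 with Chchd10, out of 20160 rows in the table. They were chosen by symbol, with the RGLS and model values of these rows known, so their differences between the groups are given as a description and without p-values. RNA was sequenced from subcutaneous tumours of BALB/c nude mice, which have no thymus, grown from cells of the mouse sarcoma line S-180. The RGLS group (3 samples) came from mice that were given RGLS before the tumour cells were injected, and the model group (3 samples) from mice with the same tumours and no RGLS named. The series title ties RGLS to Ganoderma lucidum spores stripped of their coat. The sources used here give no dose, age or sex, nor whether each sample came from its own mouse. The tumours hold host cells besides the injected line.

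Matrix metalloproteinases are zinc enzymes, secreted or bound to the membrane, that cut collagens, laminins, proteoglycans and other proteins outside the cell. They are made as inactive precursors, and the TIMP proteins block them by binding to the active site. In tumours the balance of both sets of proteins helps to set how the matrix is broken down, and stromal cells as well as tumour cells can supply them. Of the proteins encoded at these loci, TIMP3 is the TIMP that stays bound to the matrix, and it also inhibits ADAM and ADAMTS proteases. Tenascin-C, encoded by Tnc, is a large matrix glycoprotein of wound and tumour stroma. MMP19 cuts basement membrane proteins, and MMP11, known as stromelysin-3, is activated inside the cell by furin and is known from tumour stroma. The partners have other roles: synapsin III (Syn3) is a protein of synaptic vesicles, CHCHD10 is a small mitochondrial protein, and 8030451A03Rik is annotated without a coding sequence.

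Both genes of a pair share exonic bases (mm10; GENCODE vM21). Syn3 (chromosome 10, 86055125 to 86498896, reverse strand) spans the whole of Timp3 (86300372 to 86349506, forward strand). They share 1733 exonic bases (86347774 to 86349506), which are the end of the last exon of Timp3 and part of the last exon of 1 of the 6 Syn3 transcripts, one annotated as a retained intron. 8030451A03Rik (chromosome 4, 63979854 to 64149924, forward strand) shares 176 bases with Tnc (63959785 to 64047015, reverse strand), all of them coding for tenascin-C. Tmem198b (chromosome 10, 128800036 to 128804370, reverse strand) and Mmp19 (128790910 to 128800824, forward strand) meet tail to tail and share 789 bases of their last exons, none of them coding. Mmp11 (chromosome 10, 75923222 to 75936496, reverse strand) shares 155 bases with Chchd10 (75933130 to 75937747, forward strand), in the first exon of 1 of the 6 Mmp11 transcripts and in coding bases of Chchd10.

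The shared bases made up 14.1% of the exonic bases of Syn3 and 21.3% of those of Timp3. They made up 23.5% of Tmem198b and 22.3% of Mmp19, but only 4.31% of 8030451A03Rik and 2.26% of Tnc, and 5.58% of Mmp11 and 9.84% of Chchd10. Both loci with long shared stretches thus overlap in non-coding parts of last exons, while both short overlaps fall in coding bases of the partner. A window of 30 bases from the middle of the longest shared stretch of each locus shows what a read there would hold. Each pair of lines gives the same bases from the transcript of the matrix or partner gene and from the transcript opposite, 5′ to 3′ (GENCODE vM21 transcripts), and a script found each to be the reverse complement of the other. The windows lie at chr10:86348625-86348654, chr4:63982687-63982716, chr10:128800415-128800444 and chr10:75936353-75936382.
Timp3, forward strand: gtacactcaagttcttgtcctgtatcaaat
Syn3, reverse strand: atttgatacaggacaagaacttgagtgtac
Tnc, reverse strand: aaattgaactctatggaataagccgcggaa
8030451A03Rik, forward strand: ttccgcggcttattccatagagttcaattt
Mmp19, forward strand: cacgagtgtagggtccaggaagaaaggcca
Tmem198b, reverse strand: tggcctttcttcctggaccctacactcgtg
Chchd10, forward strand: gtgggctcagctgtagggcatgtcatgggt
Mmp11, reverse strand: acccatgacatgccctacagctgagcccac
Only the strand of a read tells which of both genes it came from in such a stretch. The sources used here do not state how strand was handled in counting, so for these rows the named gene and the one facing it cannot be told apart as the origin of a read.

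**Figure D1:**
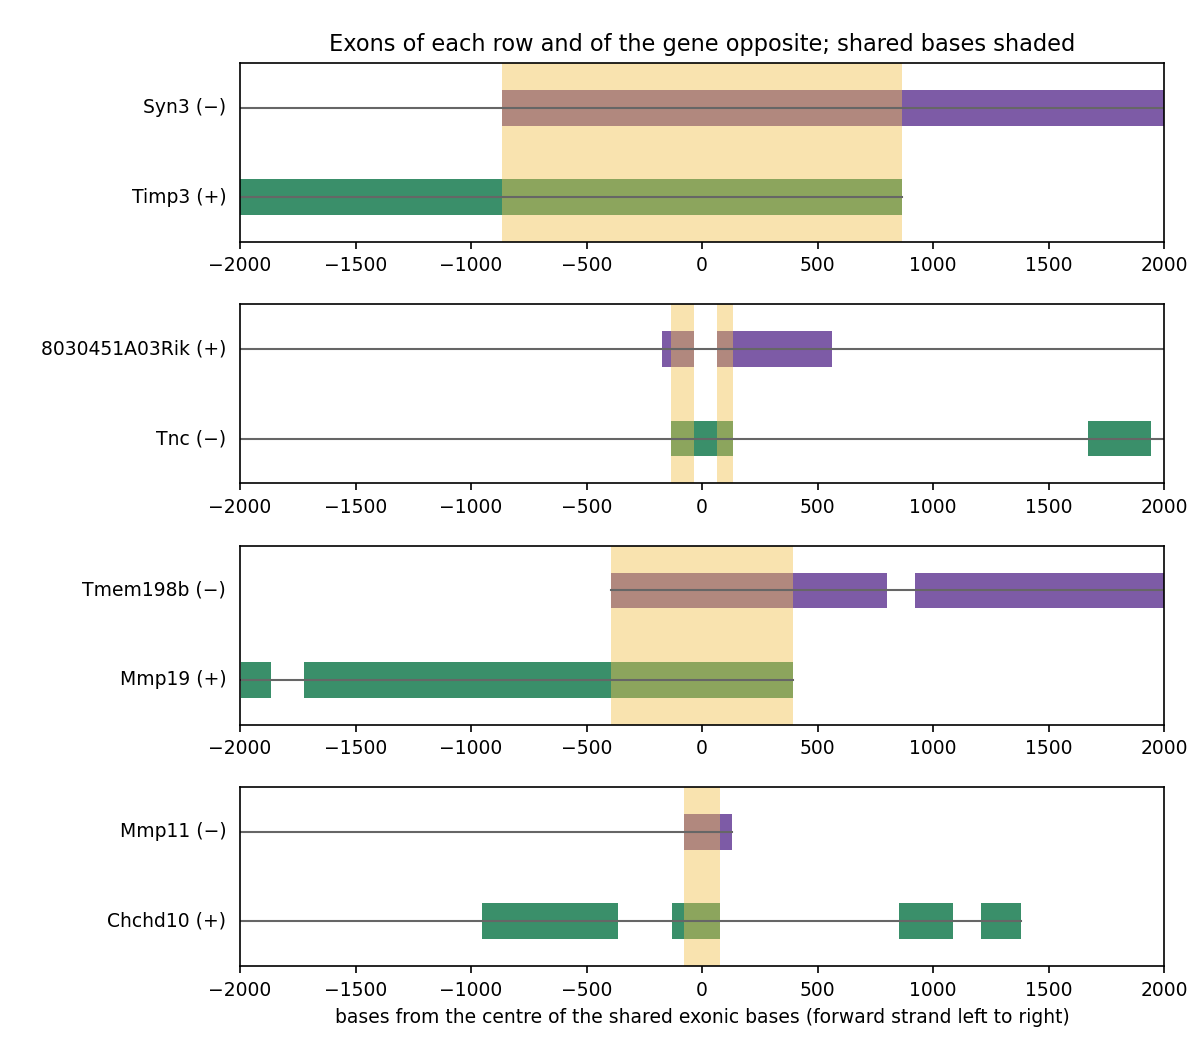
Exons of each row (purple) and of the gene opposite (green) around the exonic bases they share (shaded), in bases from the centre of the shared stretch, with the strand after each name. Tmem198b and Mmp19 share the ends of their last exons over 789 bases. Over 1733 bases the end of the last Timp3 exon faces part of the last exon of 1 of the 6 Syn3 transcripts. 8030451A03Rik with Tnc and Mmp11 with Chchd10 share 176 and 155 bases.

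The libraries held between 369453 and 458641 reads in the rows of the table, 1.79% to 2.21% of the effective library size, and 1 read was worth 0.039 to 0.0575 CPM (the authors' depth-scaled read count, after trimmed mean, TMM, scaling of library sizes). The fit over all rows was limma on log2(CPM + 1), with rows of at least 1 CPM in at least 3 libraries tested and Benjamini-Hochberg adjusted p under 0.05 as the threshold. It called 34 of 2319 rows (1.47%), 22 higher and 12 lower in RGLS, a split that other filters and scalings turned or widened (6 higher and 16 lower with a filter of 5 CPM, 50 higher and 4 lower with DESeq2). It called 209 rows without RGLS 3 (103 higher, 106 lower) and 47 without model 1 (36 higher, 11 lower). The count was 10 without RGLS 1, 12 without RGLS 2, 16 without model 2 and 10 without model 3. Overlapped rows, those that share at least 50 exonic bases with a gene opposite, had a median log2 difference of -0.19 (RGLS minus model, 1799 rows), against 0.01 over 484 other rows, so a small fall of an overlapped row is near the middle of its class.

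Counted per kilobase of exon, Mmp11 had the highest level of the 8 rows, with a mean of 4.71 CPM per kb over the 6 libraries and a range of 3.63 to 5.52. It was followed by Syn3 (1.1 CPM per kb), Tmem198b (0.991) and Mmp19 (0.714), whose ranges overlapped each other. 8030451A03Rik lay lower, at 0.214 CPM per kb, and every Mmp19 value was above it. Chchd10 (0.0384 CPM per kb), Tnc (0.0206) and Timp3 (0.0102) were lowest, and each overlapped its neighbour in this order. The matrix genes of the pairs with Syn3 and 8030451A03Rik were therefore the nearly empty rows, whereas Mmp11 was the full row of its pair and Mmp19 held 303 of the 689 reads of its pair.

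At the Timp3 locus the reads stood in the Syn3 row. Syn3 had 7.29, 5.11 and 17.3 CPM in the RGLS libraries (187, 117 and 370 reads), against 14.1, 16.6 and 21 CPM in the model libraries (245, 294 and 368 reads). RGLS 1 and RGLS 2 lay below all model libraries, but RGLS 3 lay among them, so the groups overlapped. The mean was 9.9 ± 6.5 CPM in RGLS tumours and 17.2 ± 3.49 CPM in model tumours (SD, n = 3 each), a log2 difference of -0.89 (SE 0.28). Without RGLS 3 the difference was -1.34. Over the group the scaled reads were 0.559 times those of model, with an exact 95% interval of 0.505 to 0.618 that covers counting error only and not the gap between RGLS 3 and the other RGLS libraries.

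The Timp3 row itself was nearly empty. It held 1, 1 and 4 reads in the RGLS libraries, against 0, 0 and 4 in the model libraries, and a count of 0 allows up to 3 reads, that is 0.173 CPM in model 1 and 0.17 CPM in model 2. The ratio of its scaled reads was 1.13, with an exact interval of 0.267 to 5.43, so a change of the Timp3 row was not detectable at this depth. Over all libraries 1581 of the 1591 reads of the locus were in Syn3, 99.4% (exact 95% interval 98.8 to 99.7), and per kilobase of exon Syn3 held 105 times the reads of Timp3. RGLS 3 and model 3, the libraries with most Syn3 reads, were also those with 4 Timp3 reads each. Neurons are the cells known for synapsins, and the 6 neuron marker rows summed to 2.69 to 4.16 CPM in RGLS and 0.514 to 0.978 CPM in model, higher in RGLS without overlap. Most of the sum in RGLS was Nefm, a neurofilament gene, which was higher in RGLS without overlap, as was the low Tubb3 row. The synapsin rows of the list did not share this. All model values of Syn1 lay within the range of its RGLS values, and Syn2 had reads in model 2 only. Snap25, which encodes a synaptic membrane protein, was at 0 in 5 of the 6 libraries. The part of neurons in the Syn3 values was not tested.

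At the Tnc locus both rows were low. 8030451A03Rik had 0.545, 0.218 and 0.374 CPM in the RGLS libraries (14, 5 and 8 reads), against 1.21, 1.7 and 1.2 CPM in the model libraries (21, 30 and 21 reads). All RGLS libraries lay below all model libraries, but the row reached the tested level through the model libraries alone. The mean was 0.379 ± 0.164 CPM in RGLS and 1.37 ± 0.285 CPM in model (SD, n = 3 each), a log2 difference of -0.78 (SE 0.19). At this level the 1 CPM added before the log2 step understates the change. The ratio of scaled reads was 0.282, with an exact interval of 0.174 to 0.444.

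The mean of Tnc was higher in RGLS, within wide limits. It had 0.117, 0.175 and 0.327 CPM in the RGLS libraries (3, 4 and 7 reads), against 0.0575, 0.226 and 0.0571 CPM in the model libraries (1, 4 and 1 reads), and model 2 lay among the RGLS values. The ratio was 1.75 with an exact interval of 0.633 to 5.57, which includes no change. 8030451A03Rik thus held 82.4%, 55.6% and 53.3% of the reads of the locus in the RGLS libraries, against 95.5%, 88.2% and 95.5% in the model libraries. These shares rest on 9 to 34 reads per library, and the exact interval of RGLS 2 alone runs from 21.2% to 86.3%.

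At the Mmp19 locus both rows had reads. Tmem198b had 2.42, 1.27 and 2.29 CPM in the RGLS libraries (62, 29 and 49 reads), against 3.4, 5.71 and 4.91 CPM in the model libraries (59, 101 and 86 reads). No RGLS library reached the lowest model library. The mean was 1.99 ± 0.63 CPM in RGLS and 4.67 ± 1.18 CPM in model (SD, n = 3 each), a log2 difference of -0.92 (SE 0.22), and the scaled reads were 0.428 times those of model (exact interval 0.345 to 0.529). Relative to the median of overlapped rows the log2 difference was -0.73.

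Mmp19, the protease of this pair, had 1.95, 1.79 and 3.04 CPM in the RGLS libraries, against 1.84, 3.9 and 2.62 CPM in the model libraries. The groups overlapped, and the mean was 2.26 ± 0.679 CPM in RGLS and 2.79 ± 1.04 CPM in model (SD, n = 3 each). Its log2 difference of -0.20 (SE 0.23) was within its error and lay -0.01 from the median of overlapped rows. The ratio of its scaled reads was 0.798, with an exact interval of 0.633 to 1.01. Tmem198b therefore held 55.4%, 41.4% and 43% of the reads of the locus in the RGLS libraries, against 64.8%, 59.4% and 65.2% in the model libraries, a mean of 46.6% ± 7.63 in RGLS and 63.1% ± 3.23 in model. The 3 RGLS shares were below the 3 model shares. The exact intervals ran from 29.8% to 53.8% in RGLS 2 and from 33.7% to 52.6% in RGLS 3. They ran from 54.1% to 74.6% in model 1 and from 56.4% to 73.2% in model 3. Those of RGLS 1 (45.7% to 64.8%) and model 2 (51.6% to 66.9%) overlapped all intervals of the other group. These intervals cover counting error only. Tmem198b was chosen with this contrast known, so nothing is read from the separation of the shares.

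Further genes lie opposite this pair. Tmem198b shares 138 bases with Dnajc14, a co-chaperone of the HSP40 family, whose row had 8.69, 10.5 and 8.27 CPM in the RGLS libraries, against 12.5, 9.61 and 12.7 CPM in the model libraries. Those groups overlapped. Mmp19 shares 212 bases with Gm47093, which held 5 reads over all libraries.

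At the Mmp11 locus the named protease held nearly all reads. Mmp11 had 10.1, 15.3 and 13.3 CPM in the RGLS libraries (259, 351 and 284 reads), against 13.6, 11.1 and 15.1 CPM in the model libraries (236, 197 and 265 reads). The groups overlapped throughout, with the lowest and the highest value both in RGLS. The mean was 12.9 ± 2.64 CPM in RGLS and 13.3 ± 2.01 CPM in model (SD, n = 3 each), a log2 difference of -0.05 (SE 0.17). The ratio of scaled reads was 0.963 (exact interval 0.871 to 1.06). Over the alternatives run, the log2 difference lay between -0.17 and 0.18.

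Chchd10, the mitochondrial partner, held 2, 2 and 3 reads in the RGLS libraries, against 0, 0 and 1 in the model libraries. All RGLS libraries lay above all model libraries, but on 7 reads and 1 read in all, a ratio of 5.26 with an exact interval of 0.676 to 237. Mmp11 held 99.5% of the 1600 reads of the locus (exact interval 99 to 99.8). Of its 2778 exonic bases 155 face Chchd10, a smaller share of bases than in Syn3 or Tmem198b. The counts do not show where along the row its reads lie. Gm867, which shares 25 bases with Chchd10, had 398 reads over all libraries.

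**Figure D2:**
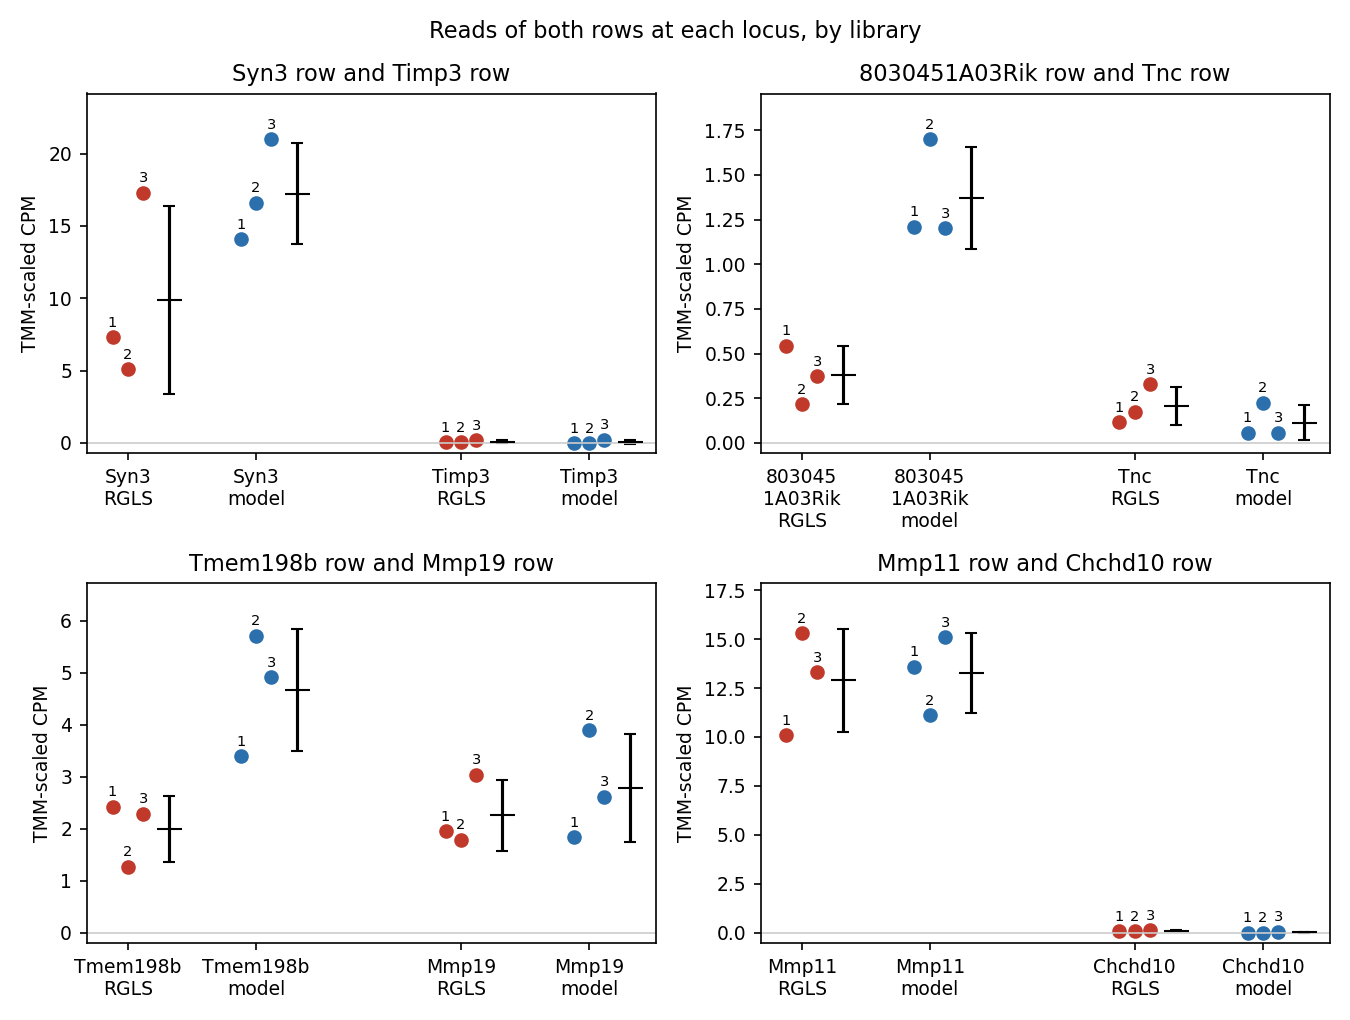
TMM-scaled CPM of both rows at each locus, with 1 numbered point per library (red, RGLS; blue, model) and the mean with its SD in black (n = 3). Tmem198b, 8030451A03Rik and, on 8 reads, Chchd10 do not overlap between the groups, RGLS 3 puts Syn3 of RGLS among the model values, and Mmp11 and Mmp19 overlap.

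**Figure D3:**
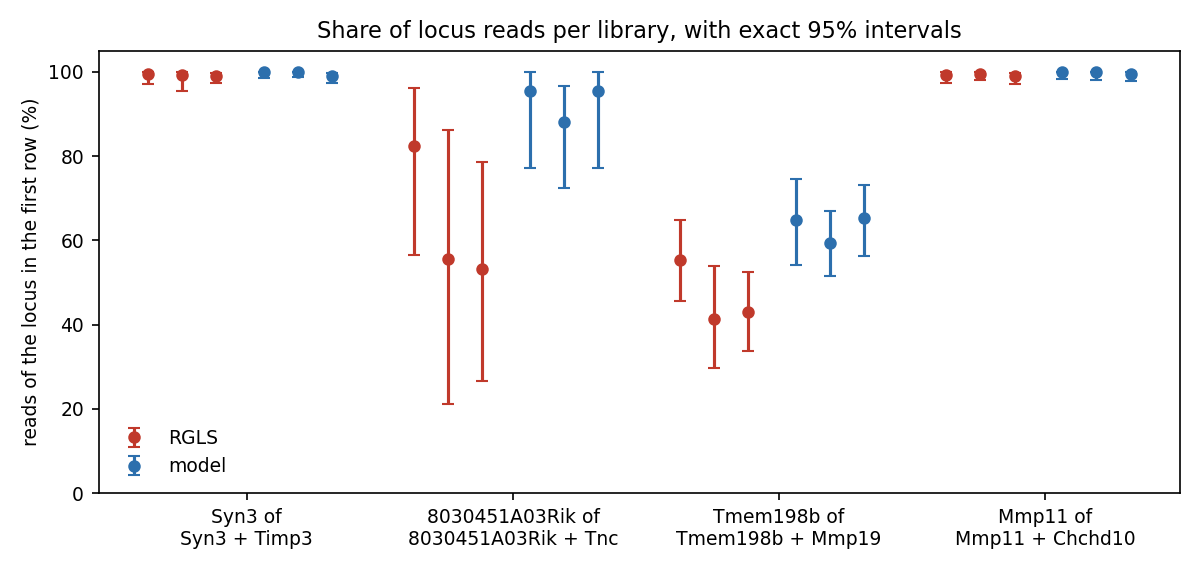
Share of the reads of each locus that lie in the first row named, in percent, per library (red, RGLS; blue, model), with exact 95% intervals for counting error. Syn3 and Mmp11 hold nearly all reads in every library, Tmem198b holds 41.4% to 55.4% in RGLS and 59.4% to 65.2% in model, and the shares of 8030451A03Rik have wide intervals.

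Of the 8 rows, 5 reached the tested level (Syn3, 8030451A03Rik, Tmem198b, Mmp19 and Mmp11). Among the calls of the fit over all rows was 1 of them, Tmem198b, lower in RGLS, while 1.47% of all rows tested were called in either direction. The 3 rows Timp3, Tnc and Chchd10 were too low to be tested. The groups did not overlap in 2 rows that were lower in RGLS, against 22.1% of all rows tested that were lower without overlap, and in 0 of the 5 that were higher, against 4.53% of all rows tested. Of the 2 lower rows, 8030451A03Rik reached the tested level through the model libraries alone, so it could only be lower without overlap. Chchd10, which was not tested, was higher without overlap on 8 reads. As these values chose the rows, nothing is read from the counts. edgeR on the recovered reads also called 1 of the 5 (1.42% of all rows) and DESeq2 called 0 of them (2.33% of all rows). Without RGLS 3, limma called 3 (Syn3, 8030451A03Rik and Tmem198b). It called 0 without RGLS 1, without RGLS 2, without model 2 or without model 3, and 0 with the medians of both classes of rows set equal.

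The rows most like those of the loci were looked for among tested rows with a mean of at least 5 CPM, by the root mean square difference of centred log2(CPM + 1) profiles over the 6 libraries. For Tmem198b these were Tada1, Plet1os and Gm19719 (0.20, 0.20 and 0.21), and for 8030451A03Rik they were Paqr3, Gm39119 and Plet1os (0.13, 0.13 and 0.14). Plet1os, which lies opposite Plet1, was thus near both, with 7.05, 5.11 and 6.4 CPM in the RGLS libraries, against 9.78, 10.5 and 11.9 CPM in the model libraries. For Syn3 they were 4930562F07Rik, Gm26716 and Cideb (0.31, 0.31 and 0.33). Gm26716, which lies opposite the syndecan gene Sdc3, had 6.78, 5.42 and 11 CPM in the RGLS libraries, against 7.37, 11.5 and 16.9 CPM in the model libraries. RGLS 3 was the highest of its group, which a choice by likeness to Syn3 favours. For Mmp11 they were Sdr39u1, Card14 and Gm12953 (0.07 each). Of these 11 rows all but Gm39119 lie opposite another gene, as do 1799 of the 2319 rows tested.

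Other genes of matrix breakdown were taken from a list of 85 genes in 6 roles, of which 60 had a row and 5 reached the tested level. Over the 5 rows the median log2 difference was -0.05, against -0.17 over all rows tested. limma called 0 of them, and 1 had an unadjusted p under 0.05 (Ctsb, higher in RGLS), as had 540 of the 2319 rows tested, 140 of them higher. edgeR and DESeq2 also called 0. Besides Mmp11 and Mmp19 these were Mmp24, Adam17 and Ctsb, and each of them faces another gene. Mmp24, a metalloproteinase of the membrane, had 14.2 ± 1.89 CPM in RGLS and 17.4 ± 0.385 CPM in model (SD, n = 3 each), a log2 difference of -0.28 (SE 0.14, limma adjusted p = 0.236). Its RGLS values lay below all its model values, as did those of 22.1% of all rows tested. Adam17, which sheds TNF from the cell surface, had 3.46 ± 1.54 CPM in RGLS and 2.63 ± 1.37 CPM in model (limma adjusted p = 0.509).

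Ctsb, which encodes the lysosomal protease cathepsin B, had 2.69 ± 1.4 CPM in RGLS and 1.12 ± 0.155 CPM in model (SD, n = 3 each). Its log2 difference was 0.72 (SE 0.26, limma adjusted p = 0.123). Its groups overlapped. It passed the threshold in 3 of 14 alternatives and failed it in 11. The 3 were leaving out RGLS 3, no filter on low values and the replicate number as a block. Fdft1, the squalene synthase gene whose row lies opposite, had 7.31 ± 1.78 CPM in RGLS and 9.73 ± 1.3 CPM in model (limma adjusted p = 0.212). Fdft1 was named after its values were seen, as the row facing Ctsb.

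The remaining roles had few reads. The 4 rows of metalloproteinase inhibitors, Timp1 to Timp4, summed to 0.522 ± 0.173 CPM in RGLS and 0.457 ± 0.497 CPM in model, on 2 to 18 reads per library. The 6 rows of the plasminogen system summed to 0.966 ± 0.389 CPM in RGLS and 0.665 ± 0.17 CPM in model, and the 11 matricellular rows to 3.93 ± 0.924 CPM in RGLS and 3.02 ± 0.612 CPM in model. None of the rows of these roles reached the tested level. The 11 metalloproteinase rows summed to 30.2 ± 4.28 CPM in RGLS and 34 ± 1.76 CPM in model, most of it in Mmp11 and Mmp24.

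Rows that face a gene of the list held more. Of 26 such rows 14 were tested, facing 13 genes, and 12 of the 14 held more reads than the row of the gene they face, a count that the filter on low values favours. Syn3, 8030451A03Rik and Tmem198b are among the 14. Of the other 11, limma called 1, Gm15270, lower in RGLS, while 0.517% of all rows tested were called lower. Rows such as 8030451A03Rik and A730049H05Rik reached the tested level through the model libraries alone and could only be lower, so no direction is read from the set.

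Gm15270 faces Ccn2, a matricellular protein, over 665 bases. It had 5.48 ± 0.886 CPM in RGLS and 9.72 ± 1.17 CPM in model (SD, n = 3 each), a log2 difference of -0.73 (SE 0.16, limma adjusted p = 0.0358), and the groups did not overlap. Its call ended in 10 of 15 alternatives, whose adjusted p in limma, edgeR or DESeq2 spanned 0.00288 to 0.208. These 10 included leaving out any 1 of the libraries other than RGLS 3, DESeq2, and equal medians within both classes of rows. The Ccn2 row had 0.458 CPM in RGLS and 0.361 CPM in model, so the pair resembled Syn3 with Timp3 in holding its reads on the row without the matrix gene's name. A730049H05Rik, named after its values were seen, faces the protease gene Adamts9 over 1381 bases and had 0.728 ± 0.177 CPM in RGLS and 1.67 ± 0.0462 CPM in model, without passing the threshold (limma adjusted p = 0.0834).

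**Figure D4:**
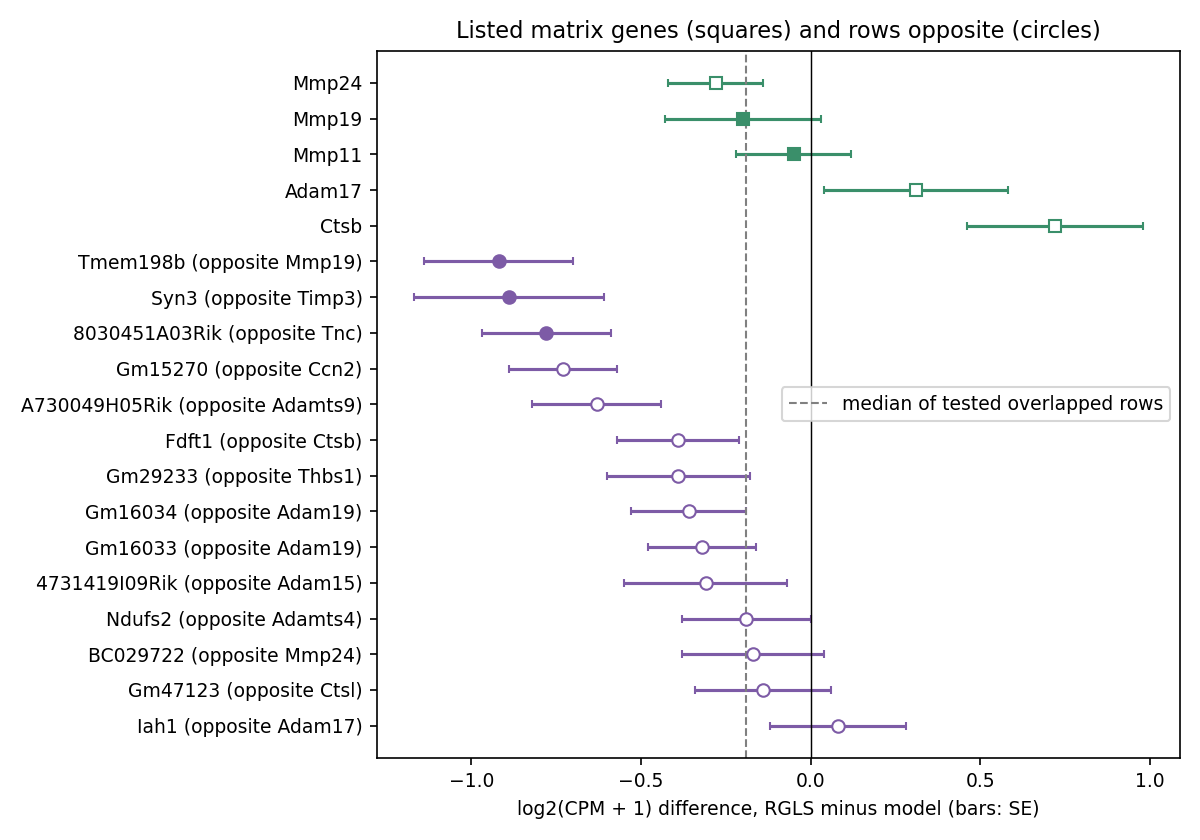
Log2(CPM + 1) difference, RGLS minus model, with its SE, for the 5 tested genes of the matrix list (squares) and the 14 tested rows that face a listed gene (circles); filled symbols are rows of the 4 loci, and the dashed line marks the median of all tested overlapped rows (-0.19). Tmem198b, Syn3 and 8030451A03Rik have the lowest values, which were known when they were chosen, and Ctsb has the highest.

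Markers of cells that can supply matrix proteins are given by their summed level, over the listed genes with a row; S-180 cells have no marker list here. In bulk tissue, fewer cells of a type and less RNA per cell cannot be told apart. The strand limit given for the 4 loci also holds for any marker row that a gene faces on the other strand. Reads of such a row may come from that gene. The 7 fibroblast marker rows summed to 0.874 to 2.45 CPM in RGLS and 0.799 to 1.02 CPM in model, with RGLS 1 highest, and Dcn, which encodes decorin, was at 0 in all libraries but model 3. The 7 macrophage rows summed to 12 to 13.4 CPM in RGLS and 14.7 to 16.6 CPM in model, mostly in Csf1r. Csf1r, the receptor gene of a macrophage growth factor, was lower in RGLS without overlap, at 8.8, 12 and 10.1 CPM, against 15.4, 13.6 and 13.8 CPM in model. The other macrophage rows did not share this: C1qb, a complement gene, had 0.195, 0.175 and 0.28 CPM in RGLS, against 0.115, 0.113 and 0.0571 CPM in model, higher without overlap, and Cd68, Lyz2 and Mrc1 had higher means in RGLS. No library was at 0 for Cd68. The 5 endothelial rows summed to 0.175 to 0.654 CPM in RGLS and 0.0571 to 0.691 CPM in model, and Tek was at 0 in 5 of 6 libraries. The 7 skeletal muscle rows summed to 7.29 to 8.43 CPM in RGLS and 2.49 to 3.54 CPM in model, higher in RGLS without overlap. Of these, Tnnc2, a troponin gene, went against the sum, with 0.701, 0.349 and 0.374 CPM in RGLS, against 0.921, 0.961 and 0.913 CPM in model. The part of these cells in the values of the 4 loci was not tested.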

How the data were processed

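The authors deposited 1 table of CPM values, named for TMM scaling and not divided by gene length. Bowtie2, HTSeq and mm10 are listed in the submitters' processing notes, with neither versions nor roles. Per the labels' protocols the kit was SMARTER mRNA-Seq; the sources used here do not say whether strand was kept. All values (100.0% within 0.001 of a read) were whole multiples of the smallest value of their column, so reads and effective library sizes were recovered. Exons came from GENCODE vM21, which holds 19732 of the 20160 symbols, and 6281 rows share at least 50 exonic bases with a gene opposite.

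RGLS was compared with model on log2(CPM + 1) by the 2-sided test of limma 3.58.1 with a trend on intensity, run in R 4.3.3, and p-values were adjusted over the 2319 rows that reached 1 CPM in 3 or more libraries. Alternatives were other pseudocounts, filters and scalings, DESeq2 1.42.0 and edgeR 4.0.16 on whole reads, a replicate block and leaving out each library. P-values measure the spread between these samples, which may be technical. Intervals for reads and shares are exact (Clopper-Pearson or conditional binomial, 95%) and cover counting error only. The members and lists were chosen with earlier results of these data known. Named rows were the 8 members, listed or facing rows past the threshold, up to 3 tested rows per role and the 3 nearest profiles of Syn3, 8030451A03Rik, Tmem198b and Mmp11. Deviations of same-numbered samples correlated by 0.00441, -0.00556 and 0.378 over rows, so the numbers were not taken as pairs.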

Additional observations from a re-analysis of the deposited data

How the results depend on the processing

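The count of rows called, 34 in all (22 higher, 12 lower), was 13 with a pseudocount of 0.1, 275 with no filter, 22 with a filter of 5 CPM, 9 after quantile normalization and 54 with DESeq2, and 10 to 209 when 1 library was left out. The share of calls that were higher, 64.7%, became 27.3% with a filter of 5 CPM, 48.1% with the replicate block and 49.3% without RGLS 3, where most calls were lower, and 75.6% with no filter, 75% without model 2, 76.6% without model 1, 77.8% after quantile normalization and 92.6% with DESeq2. Of the rows of the 4 loci, 1 was called; the count was 0 with a pseudocount of 0.1, a filter of 5 CPM, equal class medians, quantile normalization or DESeq2, 3 with no filter, and 0 to 3 without 1 library. Of the listed genes 0 were called, 2 with no filter (Ctsb and Ctsl, both higher), and 0 to 1 without 1 library. Of the rows facing a listed gene 2 were called; the count was 1 with a filter of 5 CPM, 0 with a pseudocount of 0.1, equal class medians, quantile normalization or DESeq2, and 0 to 4 without 1 library. Tmem198b kept its call in 6 of 14 alternatives. The causes were not tested.

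With the replicate number as a block, 231 rows were called, 3 of them at the 4 loci, 1 of the listed genes (Ctsb) and 5 facing a listed gene; the samples share only a number. The log2 differences of Syn3 (-1.34 to -0.55), 8030451A03Rik (-1.82 to -0.24) and Tmem198b (-1.23 to -0.46) kept their sign in all 13 alternatives. Nothing is read from the kept signs, because the rows were chosen with this contrast known. 8030451A03Rik also reached the tested level through the model libraries alone. Without 1 library, the difference in the share of Tmem198b lay between -20.9 and -14.0 percentage points and that of 8030451A03Rik between -38.6 and -24.1. For Syn3 it lay between -0.816 and -0.279 and for Mmp11 between -0.793 and -0.541. Nothing is read from these ranges either, as the shares rest on the same contrast. Timp3, Tnc and Chchd10, with 8 to 20 reads each, allow no statement on change.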
